A study of Mus musculus with 6 samples.

Results

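Elane, Ctsg, Fcnb and Pglyrp1 encode proteins that developing granulocytes load into their granules, and their raw counts were described here in every tissue section whose gene panel held them. The 4 genes were chosen by name, for their place in the granulocyte lineage, with earlier results of these data known. All 4 were among the 477 genes measured in 4 of the 6 sections, and 3 of them (Elane, Ctsg and Fcnb) among the 5050 genes measured in the other 2. The study used Xenium, an imaging method that detects single RNA molecules in tissue sections with gene-specific probes and assigns them to segmented cells, to map red cell formation in blood-forming organs of the mouse. All mice were wild type and untreated unless stated, and all were of strain C57BL/6. The sections were fetal liver at embryonic day 14.5 (E14.5), fetal liver at E13.5, leg bone marrow labelled as 8 days postnatal (P8), leg bone marrow at 89 weeks of age, an adult untreated spleen, and an adult spleen after phenylhydrazine (PHZ). PHZ damages red blood cells and causes hemolytic anemia, and it was given intraperitoneally at 40 mg/kg 2 times a day for 2 days. The methods describe a vehicle injection for control animals, which the labels do not state for the untreated spleen. The protocol text of the P8 section speaks of adult marrow, whereas its own label and the methods give day 8.

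Granulocytes arise from Kit-expressing progenitors through the promyelocyte, the stage at which azurophil (primary) granules are filled, and then pass through myelocyte stages that fill secondary granules before they mature into neutrophils. The serine proteases neutrophil elastase (Elane) and cathepsin G (Ctsg) are azurophil granule contents, whose transcription is largely shut off as cells leave the promyelocyte stage. Ficolin-B (Fcnb) is a lectin that recognizes microbial sugars and starts the lectin pathway of complement, and Pglyrp1 is a peptidoglycan recognition protein with bactericidal activity that is stored in granules and made up to later stages. Marrow is the main site of granulocyte formation after birth, fetal liver supports it before birth, and the mouse spleen can host it under stress.

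The sections held 5285 to 143810 cells and 1384795 to 20952143 gene transcripts, with medians of 60 to 190 transcripts per cell. Each condition was a single section, so no difference between sections has a replicate check, and none was tested. The intervals given are 95% exact Poisson (transcripts and contacts) or binomial (cells) intervals that cover counting error only. Between 0 and 6 cell barcodes were shared by any pair of sections. Negative control probes averaged 0.1 to 42.0 transcripts each, and every member exceeded the mean control probe of its section by at least 10.3-fold. The panels carried 5 to 8 probe sets per member in the 477-gene panel and 3 to 5 in the 5050-gene panel, so levels were compared between sections of the same panel, and an order of genes within a section also reflects their probes.

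The bases directly upstream of the 4 genes are shown because the genes were found in the same cells while lying on 4 different chromosomes. Sequences are RefSeq, mouse build GRCm38.p6, and run 5′ to 3′ on the strand of the gene over up to 250 bases before its annotated start. Elane lies on the plus strand of chromosome 10 (gene, chr10:79886312-79888216; bases shown, chr10:79886062-79886311). Ctsg lies on the minus strand of chromosome 14 (gene, chr14:56099885-56102574; bases shown, chr14:56102575-56102824). Pglyrp1 lies on the plus strand of chromosome 7 (gene, chr7:18884690-18890438; bases shown, chr7:18884440-18884689). Fcnb lies on the minus strand of chromosome 2 (gene, chr2:28076479-28084910; bases shown, chr2:28084911-28085128). The transcript start used for Fcnb lies 32 bases inside the annotated gene, and those 32 bases were left out, while distances are counted from that start. Capitals mark matches to any of 5 motifs on either strand.
Elane: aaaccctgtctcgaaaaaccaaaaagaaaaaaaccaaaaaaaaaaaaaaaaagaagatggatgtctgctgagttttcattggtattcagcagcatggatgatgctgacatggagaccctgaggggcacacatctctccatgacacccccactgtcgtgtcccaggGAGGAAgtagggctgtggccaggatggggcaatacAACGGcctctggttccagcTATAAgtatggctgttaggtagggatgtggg
Ctsg: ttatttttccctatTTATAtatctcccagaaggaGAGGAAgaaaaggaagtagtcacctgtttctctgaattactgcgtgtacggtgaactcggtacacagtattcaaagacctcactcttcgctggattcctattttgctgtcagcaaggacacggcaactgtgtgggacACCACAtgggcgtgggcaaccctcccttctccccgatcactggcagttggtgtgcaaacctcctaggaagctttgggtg
Fcnb: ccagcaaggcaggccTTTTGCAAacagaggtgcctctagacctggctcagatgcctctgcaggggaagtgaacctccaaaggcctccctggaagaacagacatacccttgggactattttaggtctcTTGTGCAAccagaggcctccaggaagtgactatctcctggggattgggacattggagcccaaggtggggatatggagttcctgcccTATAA
Pglyrp1: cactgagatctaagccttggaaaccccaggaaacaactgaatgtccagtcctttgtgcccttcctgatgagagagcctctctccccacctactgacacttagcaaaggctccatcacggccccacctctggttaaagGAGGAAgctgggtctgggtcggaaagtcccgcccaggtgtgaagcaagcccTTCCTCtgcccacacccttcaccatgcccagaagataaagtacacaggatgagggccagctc
The motifs searched were the TATA box (TATAA, found in 22.8% of 32851 mouse promoters of this length), a C/EBP motif (TTNNGNAA, 36.8%), a PU.1 motif (GAGGAA, 23.3%), a RUNX motif (TGTGGT, 14.05%) and a MYB motif (AACGG, 14.5%). A TATAA stood 31 bases before the start of Elane and 37 bases before that of Fcnb. GAGGAA stood 85 bases before the start of Elane, 216 before that of Ctsg and 113 before that of Pglyrp1, which also had the reverse form TTCCTC at 62 bases. Elane had an AACGG at 50 bases, Ctsg an ACCACA (the reverse of the RUNX letters) at 79 bases and a TTATA (the reverse of the TATA letters) at 236 bases, and Fcnb had C/EBP matches at 123 and 235 bases. No motif was in all 4 sequences. These are matches of letters only, at shares common among all promoters.

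Elane was highest in P8 marrow, at 4789 transcripts per 1000000 gene transcripts (CPM). It reached 1617 CPM in E14.5 liver, 1031 CPM in the PHZ spleen and 248 CPM in the untreated spleen. On the larger panel Elane was at 2946 CPM in 89-week marrow and at 36.1 CPM (50 transcripts) in E13.5 liver. None of the counting intervals overlapped between sections of the same panel. A cell was called positive with at least 1 transcript, and Elane-positive cells made up 7.91% of E14.5 liver, 16.5% of P8 marrow, 9.11% of 89-week marrow, 1.23% of the untreated spleen, 4.19% of the PHZ spleen and 0.435% of E13.5 liver. Cells thinned to 50 transcripts gave 4.09%, 11.7%, 8.85%, 0.731%, 2.81% and 0.160% in the same order. Within the smaller panel P8 marrow thus stayed highest and the PHZ spleen above the untreated one. Cells under 50 transcripts, 42.6% of 89-week marrow, were left out of these shares. The cells kept there were Elane-positive in 13.7% before thinning.

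Ctsg, the other azurophil protease, was also highest in P8 marrow and lowest in the untreated spleen of the smaller panel, but the PHZ spleen stood above E14.5 liver. It was at 610 CPM in P8 marrow, 353 CPM in the PHZ spleen, 277 CPM in E14.5 liver and 30.3 CPM (314 transcripts in 176 cells) in the untreated spleen. On the larger panel 89-week marrow held 2417 CPM, and E13.5 liver 84.5 CPM (117 transcripts in 45 cells). Ctsg was the lowest of the 4 members in E14.5 liver, in P8 marrow and in the untreated spleen, whereas in E13.5 liver it was above Elane and Fcnb.

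Fcnb was at 1971 CPM in P8 marrow, 565 CPM in E14.5 liver, 245 CPM in the PHZ spleen and 137 CPM in the untreated spleen. It was at 1981 CPM in 89-week marrow and 25.3 CPM (35 transcripts) in E13.5 liver, where its interval of 17.6 to 35.2 overlapped that of Elane (26.8 to 47.6). Fcnb-positive cells were 11.1% of P8 marrow, 4.19% of E14.5 liver, 8.79% of 89-week marrow, 1.43% of the PHZ spleen and 0.656% of the untreated spleen.

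Pglyrp1 had a different order. It was at 3539 CPM in P8 marrow, then at 2084 CPM in the untreated spleen, 967 CPM in the PHZ spleen and 442 CPM in E14.5 liver. In the untreated spleen 16.01% of cells were positive, but only 16.4% of these held 2 or more transcripts, compared with 46.2% of positive cells in P8 marrow, 42.5% in E14.5 liver and 29.7% in the PHZ spleen. The untreated spleen thus combined many positive cells with few transcripts in each. Pglyrp1 was the only member for which the untreated spleen was not the lowest section of its panel.

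**Figure D1:**
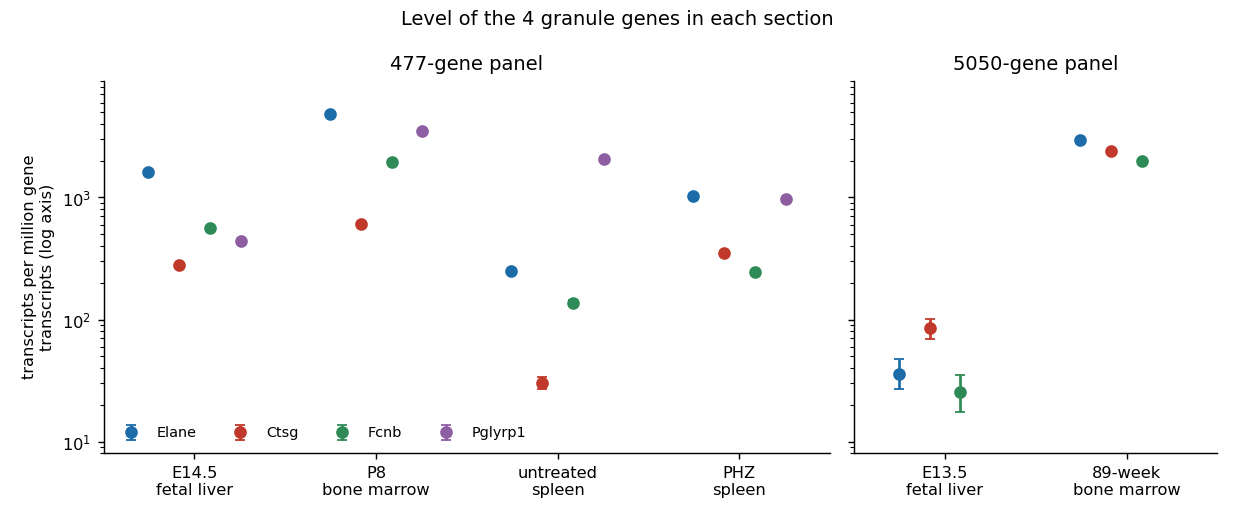
Transcripts per 1000000 gene transcripts (log axis) of each member in each section, for the 477-gene panel (left) and the 5050-gene panel (right); points are single sections and bars the 95% Poisson interval, often smaller than the point. Elane, Ctsg and Fcnb are lowest in the untreated spleen on the left, where Pglyrp1 stands at 2084.

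Positive cells were then sorted by marker gates that did not use the 4 members. A cell entered the gate whose marker sum was highest relative to the section mean, with at least 5 marker transcripts. The granulocyte gate used Mpo (myeloperoxidase, the main azurophil enzyme), secondary granule genes and mature neutrophil genes. In E14.5 liver 59.0% of granulocyte-gate cells held Elane (median 180 transcripts per cell), 27.6% Ctsg, 43.9% Fcnb and 45.4% Pglyrp1. In the hepatocyte gate (median 173), whose cells should lack these genes, the shares were 6.11%, 0.65%, 2.31% and 1.55%. The gate held 3.90% of the cells and 53.3% to 70.3% of the transcripts of each member. All 4 members were thus more frequent in granulocyte-gate than in hepatocyte-gate cells of E14.5 liver. They were not confined to the granulocyte gate among blood cells. The gate of mast cells, basophils and eosinophils (631 cells) held Ctsg in 24.9% and Elane in 36.0% of its cells. All 157 of its Ctsg-positive cells also held Mpo, a marker of the granulocyte gate. Monocyte genes are taken up below. Elane had the highest share of positive cells in the hepatocyte gate, and the source of its transcripts there was not tested.

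In P8 marrow the granulocyte gate (median 98) was positive for Elane in 32.3%, Ctsg in 9.06%, Fcnb in 31.5% and Pglyrp1 in 64.9% of cells, against 2.81%, 0.13%, 0.67% and 1.47% in the skeletal muscle gate (median 154). The erythroid gate of this section was not free of them, with Elane in 15.8% and Pglyrp1 in 14.3% of its cells. The mast, basophil and eosinophil gate (999 cells) held Elane in 34.2% and Ctsg in 18.3% of its cells, both above the granulocyte gate. Of its 183 Ctsg-positive cells 98.4% also held Mpo. In 89-week marrow the gate (median 72) held Elane in 26.4%, Ctsg in 22.1% and Fcnb in 27.4% of cells, against 1.37%, 2.74% and 2.05% in the 292 cells of the B cell gate (median 209). In E13.5 liver the gate held 97 cells (median 294), of which 17.5% held Elane, 29.9% Ctsg and 10.3% Fcnb, against 0.13%, 0.43% and 0.22% in the erythroid gate (median 217).

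In the untreated spleen Elane was found in 6.32%, Ctsg in 1.63% and Fcnb in 7.65% of granulocyte-gate cells (median 110), against 0.70%, 0.04% and 0.34% in the T and NK cell gate (median 90). In the PHZ spleen the shares were 24.8%, 13.8% and 14.02% in the granulocyte gate (median 105) and 1.93%, 0.37% and 0.58% in the T and NK gate (median 92). The gate held 40.3% of the Elane, 50.3% of the Ctsg and 62.5% of the Fcnb transcripts of the untreated spleen, and 63.96%, 79.6% and 79.4% of those of the PHZ spleen. Pglyrp1 had the lowest share inside the gate in the untreated spleen. It was found in 46.4% of granulocyte-gate cells, but also in 20.6% of T and NK gate cells, above its share of 16.01% over all cells, and in 9.18% to 20.4% of each of the other gates. The source of the Pglyrp1 transcripts outside the granulocyte gate was not tested. In the PHZ spleen Pglyrp1 was in 42.5% of granulocyte-gate cells, 13.5% of T and NK gate cells and 1.85% of erythroid-gate cells.

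In the 4 sections of the smaller panel Ctsg-positive cells held Elane more often than the reverse. Of Ctsg-positive cells, 78.9% also held Elane in E14.5 liver, 82.5% in P8 marrow, 81.9% in the PHZ spleen, 62.7% in 89-week marrow and 46.0% in the untreated spleen. In the other direction Ctsg was found in 21.1%, 18.0%, 27.1%, 55.0% and 6.07% of Elane-positive cells. Cells with Ctsg and Fcnb but no Elane and no Pglyrp1 were rare, at 22 cells in E14.5 liver, 18 in P8 marrow, 3 in the untreated spleen and 7 in the PHZ spleen. In 89-week marrow the relation was near symmetric: cells with Ctsg alone (3763) were about as many as those with Elane alone (3626), and 531 cells held Ctsg and Fcnb without Elane. A gene with more transcripts is detected in more cells, and Elane was higher than Ctsg in all 5 of these sections. In E13.5 liver, where Ctsg was higher, 15 of 23 Elane-positive cells (65.2%, interval 42.7% to 83.6%) held Ctsg and 15 of 45 Ctsg-positive cells (33.3%, 20% to 49.0%) held Elane.

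The companions of each member differed. Mpo was found in 92.5% of Ctsg-positive, 70.5% of Elane-positive, 64.9% of Fcnb-positive and 64.3% of Pglyrp1-positive cells of E14.5 liver, where 17.5% of all cells held it. In P8 marrow the corresponding shares were 93.1%, 67.1%, 52.7% and 37.2%, against 20.1% of all cells. In both spleens Ctsg was again first and Pglyrp1 last. The shares were 51.7%, 31.9%, 18.4% and 1.64% in the untreated spleen, against 1.32% of all cells. They were 84.5%, 57.7%, 64.5% and 22.1% in the PHZ spleen, where Fcnb stood above Elane, against 4.33% of all cells. In 89-week marrow Ctsg (84.9%) and Elane (83.1%) were close and Fcnb was at 48.5%. Kit, the receptor of early progenitors, was also most frequent beside Ctsg, in 58.2% of Ctsg-positive cells of E14.5 liver and 39.3% of those of P8 marrow, against 33.5% to 35.7% and 15.4% to 20.2% of cells positive for the other members. Ctsg was first in the untreated and the PHZ spleen as well, at 37.5% and 29.2%. Of all cells 20.4% held Kit in E14.5 liver, 10.1% in P8 marrow, 11.8% in the untreated spleen and 12.3% in the PHZ spleen.

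S100a9, a calprotectin subunit made in large amount by late granulocytes, ran the other way in P8 marrow and E14.5 liver but not in the spleens. In P8 marrow it was found in 67.8% of Elane-positive, 71.2% of Ctsg-positive, 83.2% of Fcnb-positive and 84.0% of Pglyrp1-positive cells, against 40.7% of all cells. In E14.5 liver the shares were 30.5%, 35.6%, 51.5% and 58.9%, against 5.56% of all cells. Both sections gave the order Elane, Ctsg, Fcnb, Pglyrp1. In the spleens Fcnb was first and Pglyrp1 last. The shares were 30.6%, 29.0%, 54.4% and 13.7% in the untreated spleen, against 8.46% of all cells. They were 46.5%, 59.4%, 62.1% and 45.8% in the PHZ spleen, against 12.9% of all cells. Any gene of the 9 mature neutrophil genes on the panel was found in 86.2%, 90.3%, 94.4% and 95.8% of the cells positive for these members in P8 marrow, where 59.2% of all cells held such a gene. Secondary and tertiary granule genes (Mmp8, Mmp9 and Abca13) were in 51.9%, 52.0%, 58.7% and 70.6%, against 39.2% of all cells.

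The combinations of members differed in the same genes. In E14.5 liver Mpo was present in 95.7% of the 717 cells with Elane and Ctsg alone and S100a9 in 14.2% of them. In the 419 cells with Fcnb and Pglyrp1 but neither protease, Mpo was present in 30.5% and S100a9 in 81.9%. Cells with all 4 members numbered 667 in E14.5 liver, 599 in P8 marrow, 22 in the untreated spleen and 427 in the PHZ spleen, and of the 667 cells 98.2% held Mpo, 79.2% S100a9 and 64.02% Kit. In P8 marrow the 403 cells with Elane and Ctsg alone held Mpo in 96.3% and S100a9 in 56.3%, and the 1543 cells with Fcnb and Pglyrp1 alone held them in 19.0% and 93.3%.

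**Figure D2:**
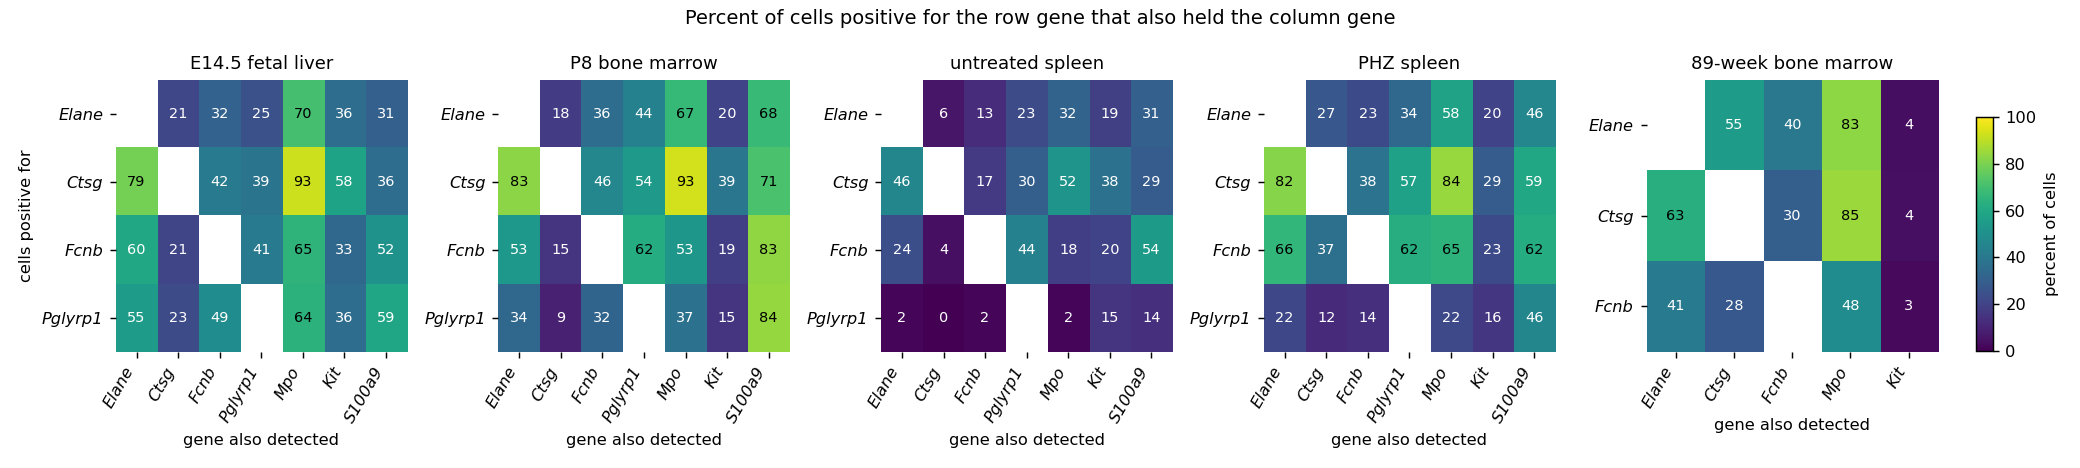
For each section, the percent of cells positive for the row gene that also held the column gene (E13.5 liver, with 68 positive cells, is not drawn). Ctsg rows are high under Elane and Mpo, and in E14.5 liver and P8 marrow the share with S100a9 is greater in the Fcnb and Pglyrp1 rows than in the Elane and Ctsg rows.

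Cells with 2 or more members were more frequent than the separate shares of the members gave in every section. There were 4849 such cells in E14.5 liver where 1214 were expected, 6930 and 4294 in P8 marrow, 10008 and 3026 in 89-week marrow, 638 and 364 in the untreated spleen, 1996 and 544 in the PHZ spleen, and 19 and 0.477 in E13.5 liver. The excess was smallest in P8 marrow (1.61-fold) and the untreated spleen (1.75-fold). Pglyrp1 alone was in 21.3% and 16.01% of the cells there, and such a ratio has less room to rise where members are frequent. Without Pglyrp1, an alternative chosen after the values were seen, the log2 ratio of the untreated spleen was 4.26 in place of 0.81. That was above the 3.54 of the PHZ spleen, where Elane, Ctsg and Fcnb were in more cells.

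The genes found in the same cells as each member were ranked by observed over expected at equal transcript depth. Abca13, a transporter gene counted here among the secondary and tertiary granule genes, led for Ctsg (13.99-fold), Fcnb (13.2-fold) and Pglyrp1 (16.5-fold) in E14.5 liver. Ctsg led the list of Elane (9.3-fold). In P8 marrow Pglyrp1 was followed by Abca13, Mrgpra2a, Ly6g, Cd300lf and Cxcr2, most of them genes of mature neutrophils, with ratios of 2.7 to 3.3. The 5050-gene panel allowed a wider view of 89-week marrow. There Elane and Ctsg had each other, Prtn3 (proteinase 3, the neighbouring azurophil protease), Cst7 (cystatin F, an inhibitor of proteases), Mpo and Gfi1 (a repressor needed for granulocyte formation) as their nearest genes, with ratios of 3.6 to 4.4, whereas Fcnb had Prom1, Abca13, Olr1, Orm1 and Gfi1 (3.7 to 4.3). In the untreated spleen Mpo led the lists of Elane (16.6-fold) and Ctsg (27.1-fold) among genes in at least 0.5% of cells. Ctsg itself was in fewer cells and stood at 24.8-fold beside Elane (81 cells). The other leading genes included Prg2 (for Elane) and Cpa3 (for Ctsg), genes of the mast, basophil and eosinophil list. There the median ratio of Elane was 2.45 for that list and 1.46 for the erythroid list, both above 1.28 for the mature neutrophil genes. In the PHZ spleen Elane, Ctsg, Fcnb, Abca13, Mpo and Lipg (endothelial lipase) made up the leading genes of the proteases and Fcnb. In E13.5 liver Prtn3 was the first gene for all 3 members, with ratios of 20.7 to 24.3 that rest on 10 to 31 cells. The members themselves, in 22 to 45 cells each, were below the minimum of 100 cells for this ranking there. Their ratios to each other were higher, at 49.8 for Elane with Ctsg (15 cells), 39.1 for Elane with Fcnb (4 cells) and 29.4 for Ctsg with Fcnb (6 cells).

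Monocyte genes (Ccr2, Ms4a6c and F13a1 on the smaller panel) were found beside the members too, above all beside Ctsg. In E14.5 liver 62.7% of Ctsg-positive cells held such a gene, against 13.2% expected at the same depth. The median ratio of these genes was 4.98 for Ctsg, above its medians of 3.05 for the mature neutrophil genes and 2.31 for the secondary and tertiary granule genes. For Elane, Fcnb and Pglyrp1 it was 3.19, 3.49 and 2.74, and for each of these the mature neutrophil median was higher (3.54, 5.98 and 6.98). In the PHZ spleen the monocyte median of Ctsg was 3.20, beside 2.99 for the mature neutrophil genes. In P8 marrow it was 2.23, beside 1.33. For Elane the monocyte median was also the higher in these sections, at 2.61 beside 2.44 in the PHZ spleen and 1.90 beside 1.38 in P8 marrow. For Fcnb and Pglyrp1 the mature neutrophil median was the higher in both. In 89-week marrow, with 5 monocyte genes on the panel, the monocyte median was 1.28 for Ctsg, 1.05 for Elane and 0.60 for Fcnb.

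Ctsg was also found outside the granulocyte gate, which rests on neutrophil genes, in 89-week marrow. The gate of mast cells, basophils and eosinophils (Cpa3, Mcpt8 and Prss34) held 947 cells, of which 391 (41.3%) were Ctsg-positive and 6.86% Elane-positive. Of these 391 cells 11.8% (8.74% to 15.4%) held Elane, against 77.7% of the 7425 Ctsg-positive cells of the granulocyte gate, and 65.2% held Mpo, against 95.8%. Mean Ctsg in the positive cells was 2.40 transcripts in this gate and 3.27 in the granulocyte gate. On the smaller panel the gate rests on Cpa3, Prg2 and Ltc4s. There the share of its Ctsg-positive cells with Elane was 64.3% in E14.5 liver and 61.7% in P8 marrow. It was 81.8% of 11 cells in the untreated spleen and 81.0% of 21 cells in the PHZ spleen. Mpo was in 100% of the Ctsg-positive cells of this gate in E14.5 liver and 98.4% in P8 marrow. In the granulocyte gate these shares were 99.4% and 97.3%. In the untreated and the PHZ spleen they were 81.8% and 90.5%, against 96.2% and 98.3%.

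In space, cells positive for a member lay next to each other more often than the same number of cells placed on the section at random would. Contacts were neighbours in a Delaunay triangulation of the cell centres, and the ratio is that of observed contacts between positive cells to those expected if the labels were exchanged over all cells of the section. For cells with any member the log2 ratio was 1.77 (1.75 to 1.80) in E14.5 liver, 3.41 (2.92 to 3.86) in E13.5 liver, 0.87 (0.85 to 0.89) in P8 marrow, 1.26 (1.24 to 1.27) in 89-week marrow, 0.32 (0.29 to 0.34) in the untreated spleen and 1.702 (1.67 to 1.73) in the PHZ spleen. The intervals treat contacts as independent Poisson counts, although contacts share cells, so they can be too narrow. All 6 ratios were above 0. Within tiles of 200 µm, which takes out the coarse layout of the tissue, they were 1.59, 3.02, 0.38, 1.15, 0.27 and 1.10. A transcript assigned to the neighbour of the cell that made it would add to such contacts, and its part in them was not tested.

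Gene by gene, Ctsg had the highest log2 ratio in E14.5 liver (3.13, against 2.23 for Elane, 2.62 for Fcnb and 2.72 for Pglyrp1) and in P8 marrow (2.84, against 1.68, 1.73 and 1.07). Expected contacts fall with the number of positive cells, and Ctsg had the fewest in both sections. A smaller share of Ctsg-positive cells had a positive neighbour. It was 68.8% against 72.7% to 82.1% in E14.5 liver, and 78.2% against 85.4% to 92.8% in P8 marrow. In 89-week marrow Elane, Ctsg and Fcnb were close, at 1.85, 1.82 and 1.68. The spleens, where fewer cells held the proteases and Fcnb, had the highest values of the smaller panel for these genes. They were at 4.17, 5.20 and 4.99 in the untreated spleen and 3.42, 4.73 and 4.50 in the PHZ spleen, whereas Pglyrp1 was at 0.28 and 1.73. Within tiles of 200 µm the spleen values were 2.01, 3.94, 2.53 and 0.25 without PHZ and 1.59, 2.36, 2.15 and 1.26 with it. On this scale E14.5 liver, at 1.99, 2.81, 2.33 and 2.44, stood above the PHZ spleen for each of the 4 members. P8 marrow was at 0.97, 1.94, 1.05 and 0.50.

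The distance over which the ratio stayed above the section level differed between organs. Within 10 µm of a Ctsg-positive cell other cells were Ctsg-positive 9.24 times as often as in the whole section in E14.5 liver. The ratio was 6.90 in P8 marrow, 3.12 in 89-week marrow, 74.96 in the untreated spleen and 28.4 in the PHZ spleen. It is taken over the section share, which was 0.162% in the untreated spleen and 1.39% in the PHZ spleen. The share of positive cells within 10 µm was, of these sections, lowest in the untreated spleen (12.2%) and highest in the PHZ spleen (39.4%). It was 19.6% in E14.5 liver, 24.8% in P8 marrow and 24.96% in 89-week marrow. At 40 to 80 µm the ratios were 1.05 in E14.5 liver and 1.05 in 89-week marrow, but 1.56 in P8 marrow, 1.92 in the untreated spleen and 4.36 in the PHZ spleen. At 80 to 160 µm the Ctsg ratio was 1.04 in E14.5 liver and 1.01 in 89-week marrow, compared with 1.49 in P8 marrow, 1.46 in the untreated spleen and 1.91 in the PHZ spleen. The ratio thus came near 1 within a short distance in E14.5 liver and old marrow and stayed farther above 1 in P8 marrow and the spleens. In P8 marrow S100a9 and Mpo were likewise at 1.46 and 1.39 at 80 to 160 µm. The section level there counts cartilage and muscle cells too, and the part of tissue layout in the far ratios was not tested. Pglyrp1 in the untreated spleen was near the section level at every distance, from 1.16 within 10 µm to 1.03 at 80 to 160 µm.

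**Figure D3:**
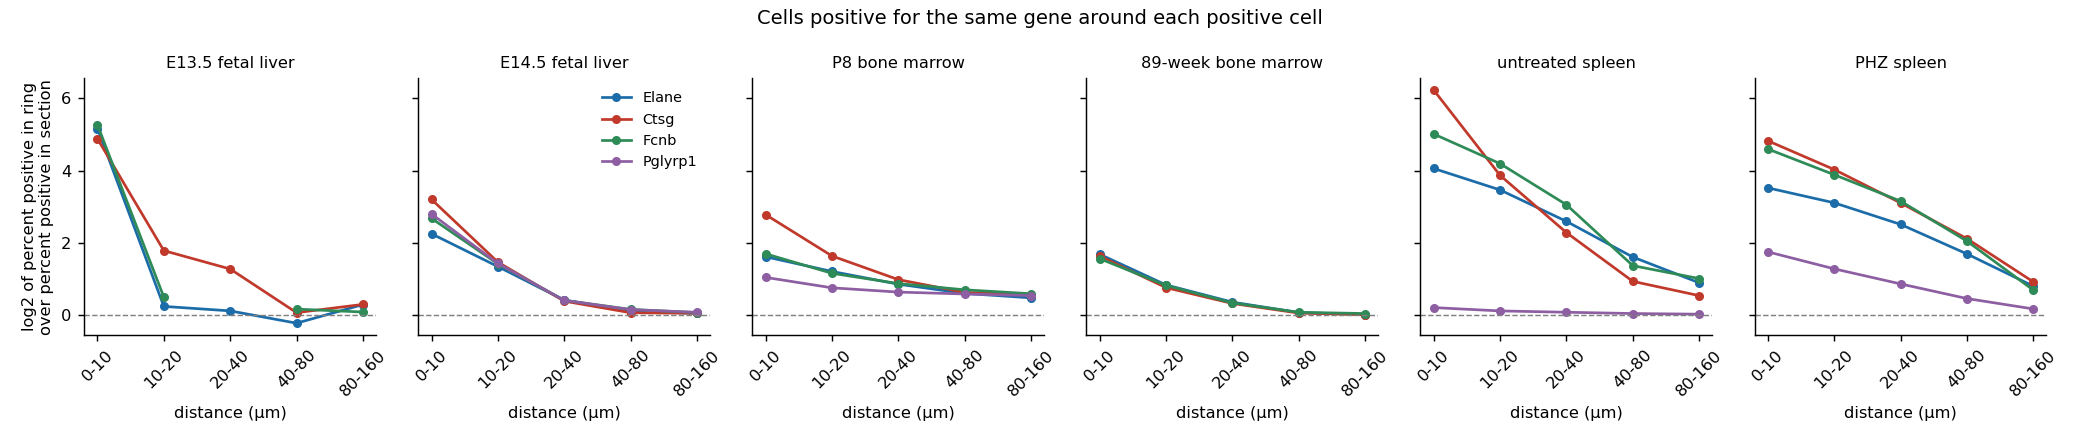
Log2 of the percent of cells positive for a gene at a given distance (µm) from a cell positive for the same gene, over the percent in the whole section; the dashed line marks the section level, and a ring with no positive cell has no point. Lines come near the dashed line by 40 to 80 µm in E14.5 liver (0.08 to 0.17) and 89-week marrow (0.07 to 0.09). They stay farther above it for Elane, Ctsg and Fcnb in both spleens.

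Cells linked by contacts of at most 20 µm formed groups. In E14.5 liver 63.4% of Elane-positive cells lay in groups of 5 or more, the largest of 59 cells, and in P8 marrow 81.1%, the largest of 369. In 89-week marrow it was 54.6%, the largest of 54. In the untreated spleen 33.5% of Elane-positive cells were in such groups and 47.9% were alone, compared with 68.5% and 23.0% in the PHZ spleen, where the largest group had 175 cells rather than 61. For Ctsg the share in groups of 5 or more was 5.68% in the untreated spleen (1 group of 10 cells) and 62.0% in the PHZ spleen (74 groups). Groups can form more readily where more cells are positive, and no expected group size was computed. Positive cells of the untreated and the PHZ spleen numbered 1335 and 3965 for Elane and 176 and 1313 for Ctsg. The contact ratios above, set against expectation, were higher in the untreated spleen for both genes.

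Contacts with the cells of a gate were counted for positive cells outside that gate, against the share of positive cells among all cells outside it. Contacts with granulocyte-gate cells exceeded expectation for each of the 4 members in E14.5 liver (log2 ratio 2.14 to 2.45), P8 marrow (1.04 to 1.28) and the PHZ spleen (1.01 to 2.40). A transcript assigned to the neighbour of the cell that made it would add to these contacts, and its part was not tested. In the untreated spleen the ratio was 1.54 for Elane, 1.75 for Ctsg, 1.98 for Fcnb and 0.18 for Pglyrp1. These are ratios to expectation, and the gate held 3.90% of the cells of E14.5 liver and 6.20% of those of the PHZ spleen. Monocyte-gate cells were over-represented as well in E14.5 liver (1.30 to 1.88) and P8 marrow (0.64 to 1.22), and cells of the mast, basophil and eosinophil gate in E14.5 liver (1.14 to 1.73). Endothelial-gate cells were under-represented in E14.5 liver (-1.97 to -1.19), as were cartilage-gate cells in P8 marrow (-5.96 to -3.99). Cells of the C1q macrophage gate, the macrophages of erythroblastic islands, were touched less often than expected in E14.5 liver (-0.52 to -0.38), and erythroid-gate cells slightly less (-0.29 to -0.18).

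The comparison of the PHZ spleen with the untreated spleen asked what hemolytic stress does to the organ, here in its granulocyte compartment. Elane was 4.15-fold higher in the PHZ spleen (2571 and 11788 transcripts; 248 and 1031 CPM; log2 ratio 2.05, counting interval 1.99 to 2.12) and Ctsg 11.6-fold higher (314 and 4032 transcripts; 30.3 and 353 CPM; 3.54, 3.37 to 3.71). Fcnb was 1.78-fold higher (1423 and 2800 transcripts; 137 and 245 CPM; 0.83, 0.74 to 0.93), and Pglyrp1 2.15-fold lower (21572 and 11055 transcripts; 2084 and 967 CPM; -1.11, -1.14 to -1.07). These counts hold only transcripts with a quality score of 20 or more. Of decoded transcripts 84.5% and 66.9% reached it for Fcnb, and 92.1% and 72.2% for Pglyrp1, in the untreated and the PHZ spleen. CPM ratios without this filter were not computed. At a fold of 2, 2 of the 4 members were higher, where 12.9% of the 472 genes with 100 or more transcripts over the 2 spleens were, and 1 of the 4 was lower, where 27.5% of these genes were. The median gene had a log2 ratio of -0.45, and Ctsg ranked 9th, Elane 33rd, Fcnb 67th and Pglyrp1 350th from the highest ratio. The 2 sections are 1 animal's each as far as the labels tell, so the treatment and the animal cannot be told apart.

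More positive cells and more transcripts in each entered the ratios of Elane and Ctsg, and mainly more positive cells that of Fcnb. The share of positive cells was 3.402-fold higher for Elane, 8.55-fold for Ctsg and 2.18-fold for Fcnb in the PHZ spleen, whereas Pglyrp1-positive cells went from 160 to 65.2 per 1000 cells. The mean number of transcripts in a positive cell was 1.93 and 2.97 for Elane, 1.78 and 3.07 for Ctsg, 2.00 and 2.07 for Fcnb and 1.24 and 1.79 for Pglyrp1. Cells with 5 or more transcripts numbered 101 and 762 for Elane, 14 and 237 for Ctsg, 68 and 139 for Fcnb, and 128 and 426 for Pglyrp1. Strongly positive Pglyrp1 cells were thus more numerous in the PHZ spleen, although its total was lower.

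Splitting the transcripts by the granulocyte gate, a step chosen after the values were seen, separated these patterns. The gate held 3257 cells of the untreated spleen and 5861 of the PHZ spleen. Its markers include Mpo, Il1r2, Mmp8 and Mrgpra2a, which were themselves higher in the PHZ spleen, so the difference between the sections in part decides which cells are inside. Inside it every member was higher in the PHZ spleen, by log2 2.72 for Elane, 4.20 for Ctsg, 1.18 for Fcnb and 1.00 for Pglyrp1 (301 and 601 CPM of the section). These ratios are over all transcripts of the section and hold the larger number of gate cells. Per 100 gate cells, Elane was at 31.8 and 129 transcripts, Ctsg at 4.85 and 54.8, Fcnb at 27.3 and 37.9, and Pglyrp1 at 95.6 and 117. The share of gate cells positive for Pglyrp1 was 46.4% and 42.5%. Outside it the ratios were 1.33, 2.25, -0.029 and -2.28, with Pglyrp1 at 1783 and 366 CPM. The gate held 14.4% of the Pglyrp1 transcripts of the untreated spleen and 62.1% of those of the PHZ spleen. The lower Pglyrp1 of the whole PHZ section thus lay in cells outside the gate, which can also hold granulocytes with fewer than 5 marker transcripts, and its source was not tested. Plbd1, a phospholipase of myeloid cells, was left out of the gate since it was found in 59.5% of all cells of the untreated spleen and 22.9% of those of the PHZ spleen. With Plbd1 kept, Pglyrp1 inside the gate was at log2 0.48 and outside at -2.18. Among cells with a transcript of any granulocyte list gene, Plbd1 left out, Pglyrp1 was lower in the PHZ spleen (-0.29, -0.34 to -0.25). Elane, Ctsg and Fcnb stayed higher there (2.27, 3.75 and 0.94). The sign for Pglyrp1 thus depended on how granulocytes were picked.

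**Figure D4:**
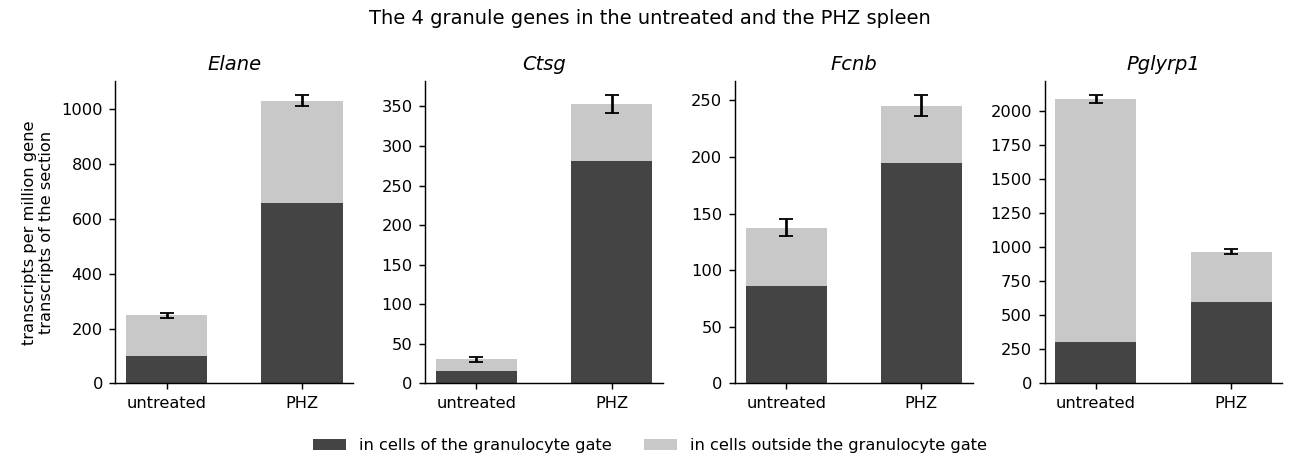
Transcripts per 1000000 gene transcripts of the section for each member in the untreated and the PHZ spleen, split into cells inside (dark) and outside (light) the granulocyte gate; bars start at 0, each panel has its own scale, and whiskers are the 95% Poisson interval of the total. The dark part is larger in the PHZ spleen for all 4 genes, and the light part of Pglyrp1 goes from 1783 to 366.

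Most other genes of the lineage differed less than the proteases did. Mpo, the other azurophil gene on the panel, was at 265 and 1142 CPM (log2 ratio 2.11). Of the 3 secondary and tertiary granule genes Mmp8 (neutrophil collagenase) was over 2-fold higher (290 and 862 CPM, 1.57), Abca13 was at 0.82 and Mmp9 at -0.58. Of the 9 mature neutrophil genes 2 were over 2-fold higher, the decoy receptor Il1r2 (2.01) and Mrgpra2a (1.45), and 1 was lower (Plbd1, -2.38), with S100a9 at -0.02 (2187 and 2161 CPM), Csf3r, the G-CSF receptor, at 0.01 and a list median of -0.02. The counts of these lists stand beside 12.9% of all 472 genes over 2-fold higher and 27.5% over 2-fold lower. Of the 3 progenitor genes Kit was level (-0.01), Cd34 lower (-1.34) and Cd93 higher (0.54). Larger shifts surrounded them: all 10 erythroid genes were over 2-fold higher (median 3.34), all 3 cycling genes were (median 2.65), and all 6 T and NK genes over 2-fold lower (median -2.73). These lists bear on the total over which CPM is formed, and per cell rather than per transcript Elane was at log2 2.39, Ctsg at 3.88, Fcnb at 1.17 and Pglyrp1 at -0.77. Per cell Fcnb was thus over 2-fold higher, and Pglyrp1 was less than 2-fold lower. The share of all genes past 2-fold was not computed per cell.

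In both spleens the protease- and Fcnb-positive cells were more frequent at the rim of the section than inside, which was measured after the maps were seen. Cells within 100 µm of the outline of the section's cells were 11.7% of all cells of the untreated spleen but 47.0% of Elane-positive, 49.4% of Ctsg-positive and 38.0% of Fcnb-positive cells. In the PHZ spleen the band held 14.96% of all cells and 44.7%, 47.0% and 44.6% of the cells positive for these genes. The share of cells positive for Elane, Ctsg or Fcnb was 6.44% in the band and 1.20% farther inside in the untreated spleen (5.36-fold), and 13.9% and 3.33% in the PHZ spleen (4.18-fold). Their median distance from the outline was 144 µm and 180 µm, against 354 µm and 349 µm for all cells.

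The band differed in other measures too. Median transcripts per cell were 119 in the band and 80 inside in the untreated spleen, and 137 and 99 in the PHZ spleen. Cells with a negative control transcript were 2.86 times as frequent in the band as inside in the untreated spleen (1.31% and 0.46%) and 1.15 times in the PHZ spleen (0.46% and 0.40%), and the part of such edge signal in the protease counts was not tested. The ratio of band to inside was 6.71 for Elane, 7.38 for Ctsg, 4.62 for Fcnb and 6.62 for Mpo in the untreated spleen, beside 3.34 for S100a9, 2.02 for Csf3r and 0.83 for Pglyrp1. In the PHZ spleen it was 4.59, 5.04, 4.57 and 4.77 for the first 4 of these, and 1.82, 1.16 and 1.80 for the rest. The ratios of Elane, Ctsg, Fcnb and Mpo were thus above those of S100a9 and Csf3r in both sections.

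The PHZ difference was present in both zones. Within 100 µm of the outline the log2 ratio was 1.67 (1.59 to 1.75) for Elane, 3.09 (2.87 to 3.31) for Ctsg and 0.63 (0.50 to 0.76) for Fcnb. Farther inside it was 2.35 (2.25 to 2.44), 3.90 (3.64 to 4.16) and 0.90 (0.77 to 1.04). Pglyrp1 was level in the band (0.05, -0.02 to 0.12) and lower inside (-1.45, -1.48 to -1.41). In the other organs the band-to-inside ratios were closer to 1. Those of Elane, Ctsg and Fcnb were 1.10, 1.26 and 1.02 in E14.5 liver, where cells with a negative control transcript were at 1.43. They were 0.80, 0.74 and 0.79 in P8 marrow and 1.05, 1.11 and 0.95 in 89-week marrow. E13.5 liver was too small for the measure, with 80.5% of its cells in the band.

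**Figure D5:**
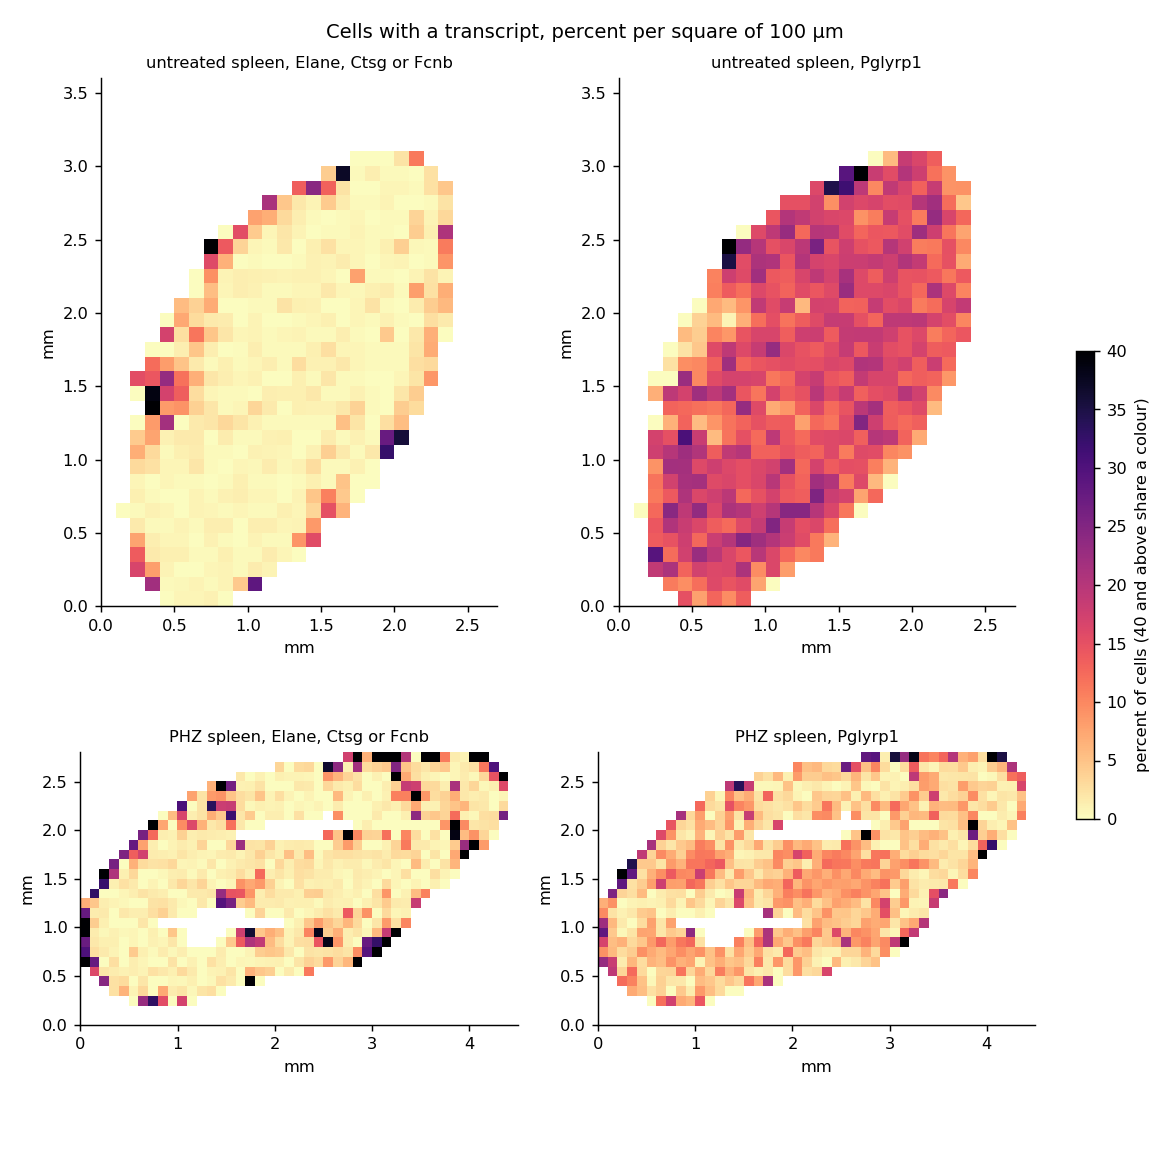
Percent of cells with a transcript of Elane, Ctsg or Fcnb (left) and of Pglyrp1 (right) in squares of 100 µm of the untreated spleen (top) and the PHZ spleen (bottom), axes in mm, values of 40 and above sharing the darkest colour. Dark squares on the left line the rim of both sections, and 62 squares of the PHZ spleen and 11 of the untreated spleen were above 20%, whereas Pglyrp1 of the untreated spleen is spread over the section, with a median of 15.7%.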

How the data were processed

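The study measured RNA in formalin-fixed tissue sections of 5 µm with Xenium gene panels of 477 or 5050 genes. The authors' instrument software decoded the transcripts, segmented the cells and gave the deposited whole-number counts per gene and cell. It was Xenium Onboard Analysis 1.7.1.0 for the smaller panel and 3.1.0.4 for the larger one, per the deposited run records. The deposited transcript files carry a quality score, and counts in the cell matrices were those at a score of 20 or more, checked for 477 of 477 genes in each section of the smaller panel. Cell positions in µm came from the deposited cell tables. All cells and raw counts were used, and no doublet caller was run, since segmentation and not droplets defines a cell.

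From these counts CPM (transcripts per 1000000 gene transcripts of the section), shares of positive cells, shares in cells thinned to 50 transcripts, co-detection, neighbour contacts and rings around positive cells were computed with Python 3.11.15, numpy 2.4.6, pandas 2.3.3 and scipy 1.17.1. Expected co-detection took each gene's share within 10 equal bins of cells by total transcripts, and for cells with 2 or more members the shares over all cells. The gate threshold was 5 marker transcripts. Genes with 100 or more transcripts over both spleens were ranked. Contacts were Delaunay edges of up to 400 µm. The outline of a section was drawn on a grid of 20 µm with gaps closed and holes filled. The count ratio with its interval, the expected number of cells with 2 or more members and the contact ratio were tested on simulated data. The other steps were not. Groups came from the labels, 1 section each, so no p-value was computed. The genes named are the 4 members, Mpo and S100a9 as reference genes, genes of marker lists, and 5 leading genes per member. The leading genes had the highest observed over expected co-detection among genes in at least 0.5% of cells and 100 cells. The members and lists were chosen with earlier results of these data known. Alternatives are given in the closing section.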

Additional observations from a re-analysis of the deposited data

How the results depend on the processing

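Of 32 alternative values of the spleen ratios (log2, PHZ over untreated), 4 changed sign, 19 moved by more than the counting interval and 9 did not. Per cell in place of per transcript, Elane was at 2.39, Ctsg at 3.88, Fcnb at 1.17 and Pglyrp1 at -0.77. With only transcripts over a nucleus Elane was at 2.26 and Fcnb at 0.93, and without Hbb-bt in the total Pglyrp1 was at -1.05. Alternatives chosen after seeing the data counted cells by gate. Inside the granulocyte gate Elane was at 2.72, Ctsg at 4.20, Fcnb at 1.18 and Pglyrp1, reversed, at 1.00. Outside it they were at 1.33, 2.25, -0.029 (interval -0.20 to 0.14) and -2.28. With Plbd1 kept in the gate the values were 2.99, 4.49, 1.29 and 0.48 (reversed) inside, and 1.21, 2.08, -0.16 (-0.33 to 0.00075) and -2.18 outside. Both Fcnb intervals span 0, so its sign outside the gate is not settled. Among cells with any granulocyte list gene, a split outside these 32 values, Pglyrp1 was not reversed (-0.29). A sign change here follows from which cells are counted.

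For cells with 2 or more members the log2 ratio of observed to expected stayed above 0 in all 22 alternatives, of which 17 moved. With shares taken within 10 bins of depth it was 1.95 in E14.5 liver, 0.59 in P8 marrow, 1.27 in 89-week marrow, 0.67 in the untreated spleen and 1.79 in the PHZ spleen. With at least 2 transcripts of a member it was 3.30, 1.51, 2.73, 3.68 and 3.67 in these sections and 7.14 in E13.5 liver. With cells of at least 20 transcripts it was 0.62 in P8 marrow and 1.54 in 89-week marrow. Without Pglyrp1, chosen after seeing the data, it was 2.54 in E14.5 liver, 1.45 in P8 marrow, 4.26 in the untreated spleen and 3.54 in the PHZ spleen.

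For contacts between positive cells 15 of 22 alternatives moved and all stayed above 0. A move was judged by the interval that treats contacts as independent counts. Within tiles of 200 µm the ratio was 1.59 in E14.5 liver, 0.38 in P8 marrow, 1.15 in 89-week marrow, 0.27 in the untreated spleen and 1.10 in the PHZ spleen. With at least 2 member transcripts it was 2.73, 1.37, 1.72, 1.87 and 3.56. With contacts of up to 30 µm it was 0.90 in P8 marrow. Without Pglyrp1, chosen after seeing the data, it was 1.91 in E14.5 liver, 1.29 in P8 marrow, 3.66 in the untreated spleen and 3.16 in the PHZ spleen. In P8 marrow the share of Elane-, Ctsg-, Fcnb- and Pglyrp1-positive cells with a mature neutrophil gene was 91.4%, 93.5%, 98.2% and 98.9% with at least 2 transcripts of the member, and 79.1%, 83.5%, 89.1% and 92.6% without S100a9 in the list, so the order of the 4 members held.

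No paired analysis was possible because each condition is 1 section. The intervals cover counting error, and the spread between animals was not measured. Median depth of 60 to 190 transcripts per cell leaves a cell with no transcript of a member undecided rather than negative, and shares of positive cells in E13.5 liver rest on 22 to 45 cells.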

Other observations

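The deposited transcript files show how the members were decoded. Fcnb and Pglyrp1 lost more transcripts to the quality filter than the proteases did: 66.9% to 84.5% of decoded Fcnb transcripts and 72.2% to 92.1% of Pglyrp1 transcripts reached a score of 20, compared with 91.0% to 98.3% for Elane and 88.4% to 97.5% for Ctsg, over the 4 sections of the smaller panel. For all 4 genes the untreated spleen had the highest share passing and the PHZ spleen the lowest. The untreated and PHZ values were 84.5% and 66.9% for Fcnb and 92.1% and 72.2% for Pglyrp1. Over all decoded transcripts, without the filter, Fcnb had 1708 in the untreated and 4243 in the PHZ spleen, and Pglyrp1 23487 and 15466.

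Of the members' transcripts that passed, 94.3% to 99.8% lay in a segmented cell and 52.5% to 66.7% of those over a nucleus. Pglyrp1 in the untreated spleen had the highest share over a nucleus (66.7%), and Ctsg in the PHZ spleen the lowest (52.5%).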
